A study of Rattus norvegicus with 6 samples.

Results

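The 10 genes below code for immediate early and stress-responsive transcription factors and were followed across the populations of a rat olfactory ensheathing cell study: Fos, Fosl1, Fosl2, Jun, Junb, Egr1, Atf3, Klf4, Myc and Nr4a1. They were taken by gene symbol, as all probe sets annotated with 1 symbol that is one of these names. This gave 37 probe sets, 23 on the U34A array and 14 on the RAE2.0 array, for 10 of the 14372 genes that have such a probe set on either type. All 37 probe sets exceeded the floor, the signal below which values were not read (129 on U34A and 168 on RAE2.0), on at least 1 array, so all 10 genes were among the 3129 tested on both types.

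Olfactory ensheathing cells (OECs) are the glia that wrap the axons of the olfactory nerve. OEC Ep cells were a primary culture from the olfactory nerve layer of Wistar rats of 21 postnatal days, taken after 1 week and fewer than 3 population doublings. OEC Lp cells came from the same layer, strain and age and had passed 50 doublings. TEG3 is a clonal line, derived from cells of Wistar rats aged 60 days by transfection with the large T antigen of SV40, so it stands for 1 clone, and population cannot be told apart from donor age and immortalisation. The medium of all 3 was DMEM, to which 3% serum, 2 µM forskolin (an agent that raises cyclic AMP) and, at 20 µg/ml, pituitary extract were added. No culture without forskolin was analysed here, so every level below is a level under forskolin. By the labels OEC Ep and OEC Lp cultures were over 90% pure; purity of TEG3 is not stated there. RNA was pooled from 3 cultures a pool, with 2 pools a population, and each population has 1 array of each type. Which pool was on which array is not stated, so the spread between arrays may be technical.

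Immediate early genes are transcribed within minutes of a stimulus from factors that are already present in the cell, and most of their RNAs are short-lived. Serum and growth factors reach them through MAP kinases and the serum response factor, which binds the CArG box, and cyclic AMP reaches them through CREB, which binds the cyclic AMP response element. Fos and Jun proteins pair through leucine zippers to form AP-1, in which Junb can act against Jun. ATF3 is a stress-induced member of the same zipper class, EGR1, KLF4 and the orphan receptor NR4A1 carry zinc fingers, and MYC drives growth and ribosome genes. In Schwann cells, the related glia of peripheral nerve, Jun is known for its part in the response to nerve injury.

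The arrays of a type had closely similar scaling, with 59.1 to 61.8% of probe sets over the floor. GAPDH probe sets at the 3' and 5' ends, whose ratio tells of RNA quality, gave 1.96 for OEC Ep on U34A against 1.52 for OEC Lp and 1.54 for TEG3, and 0.981 to 1.02 on RAE2.0. Defining markers of ensheathing cells were present in OEC Ep and lower in the other populations. The summed signal of the 12 ensheathing cell markers measured on RAE2.0 was 107617 for OEC Ep, against 5261 for OEC Lp and 4690 for TEG3. On RAE2.0 Gfap, S100b, Ngfr, Fabp7, Erbb3 and L1cam were at the floor in both OEC Lp and TEG3. The 10 ensheathing cell markers measured on U34A summed to 38077 for OEC Ep, 4792 for OEC Lp and 6096 for TEG3. On that type Ngfr was over the floor in all 3, with 12716, 2569 and 3621 in that order, and so was L1cam, with 5032, 348 and 600. Microglia and macrophage markers were also lower: OEC Lp and TEG3 each read all 13 measured on RAE2.0 at least 2-fold below OEC Ep, with a summed signal of 65593, 5056 and 3117 in the same order. On U34A this held for 5 of 8 in OEC Lp and 7 of 8 in TEG3. The sums there were 26897, 1487 and 1562. Neuron markers summed to 38268, 1630 and 5546 on RAE2.0, and fibroblast and meningeal markers to 132357, 137560 and 38739. Of the 12 fibroblast and meningeal markers measured there, 6 were at least 2-fold higher and 4 lower in OEC Lp, and 1 was higher and 5 lower in TEG3. Foxc1 was at the floor in OEC Ep and read 2118 in OEC Lp, while Postn read 56582 and 394. In such bulk RNA, fewer cells of a type and less RNA per cell cannot be told apart, and the part of these cell types in the differences below was not tested.

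Promoter windows from RefSeq (build GRCr8, 250 bases before to 50 after the annotated start) were found for 6 of the 10 genes: Fosl1, Fosl2, Junb, Egr1, Klf4 and Nr4a1. Below are the 250 bases before the start of Junb, which was higher in OEC Lp and TEG3 than in OEC Ep on both types, and of Nr4a1, which was lower. They are shown because forskolin, present in every culture, acts on the cyclic AMP response element, whose core differs in number between these genes. Capitals mark this core, TGACG on the strand shown or CGTCA for the opposite strand. The Junb window is chr19:40080876-40081125 on the plus strand and the Nr4a1 window is chr7:134259888-134260137 on the plus strand.
Junb: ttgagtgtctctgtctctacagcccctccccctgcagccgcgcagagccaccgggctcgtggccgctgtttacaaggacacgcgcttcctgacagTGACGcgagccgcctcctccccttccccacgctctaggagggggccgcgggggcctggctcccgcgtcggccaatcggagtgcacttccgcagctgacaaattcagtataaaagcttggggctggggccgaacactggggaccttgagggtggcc
Nr4a1: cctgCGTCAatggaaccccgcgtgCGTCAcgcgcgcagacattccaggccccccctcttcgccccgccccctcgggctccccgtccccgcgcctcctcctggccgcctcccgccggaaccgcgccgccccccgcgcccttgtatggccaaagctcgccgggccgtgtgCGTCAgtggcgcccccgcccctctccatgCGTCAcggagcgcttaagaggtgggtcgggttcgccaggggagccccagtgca

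The core occurred 4 times in the Nr4a1 window, 2 times each in those of Fosl1 and Egr1, 1 time in that of Junb, and in none of those of Fosl2 and Klf4. On either strand, 21.2% of the 33469 windows of the table hold it. The whole element, TGACGTCA, which contains the core, is in 1.83% of windows and in none of the 6. A CArG box was found 2 times in the Egr1 window, 105 and 83 bases before the start, against 1.64% of all windows with at least 1. A site of the EGR type, GCGNGGGCG, was found 1 time for Nr4a1 and 2 times for Fosl2, and 4.98% of windows hold it. The AP-1 site TGANTCA and the E-box CACGTG, found in 7.33% and 6.42% of windows, did not occur in the 6. The start used for Klf4 lies 590 bases inside the annotated gene and that of Nr4a1 12985 bases inside it, so these windows belong to 1 of several starts. The genes with the core include some with higher and some with lower signals in OEC Lp and TEG3.

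**Figure D1:**
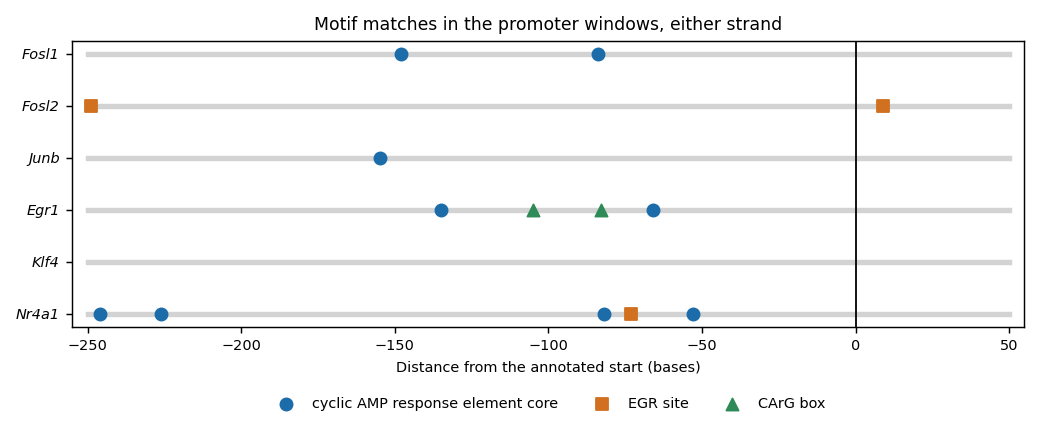
Positions of motif matches on either strand in the promoter windows of 6 genes, in bases from the annotated start (vertical line). Nr4a1 has 4 cyclic AMP response element cores and Egr1 has 2 cores and 2 CArG boxes, while Klf4 has none of the 3 motifs drawn.

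Against OEC Ep, 6 of the 10 genes had 1 sign in OEC Lp and TEG3 on both array types. Klf4, Egr1 and Junb had higher signals, and Atf3, Jun and Nr4a1 had lower ones. Fos, Fosl1 and Fosl2 were lower in OEC Lp on both types, while in TEG3 the types differed, and Myc was higher on both types in TEG3 but not in OEC Lp. These comparisons share the OEC Ep arrays, so their likeness is not independent. Of the 10 genes, limma called Klf4 higher and Atf3 lower in OEC Lp, against 2.11% of the 3129 genes called higher and 4.03% called lower (6.14% in all) at an adjusted p under 0.05. In TEG3 it called Klf4 higher and Jun lower, against 0.671% and 3.84% (4.51% in all). The array types gave the same sign for 9 of 10 genes in OEC Lp and 7 of 10 in TEG3, where it did so for 62.4% and 64.6% of all genes. The median size of the log2 fold was 1.06 and 1.33 over the 10 genes and 0.42 and 0.46 over all genes. A gene at the floor in both populations compared had a log2 fold of 0 on that type and did not count as the same sign. Such values lower the same-sign share and median size over all genes, here and below, and did not occur among the 10.

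**Figure D2:**
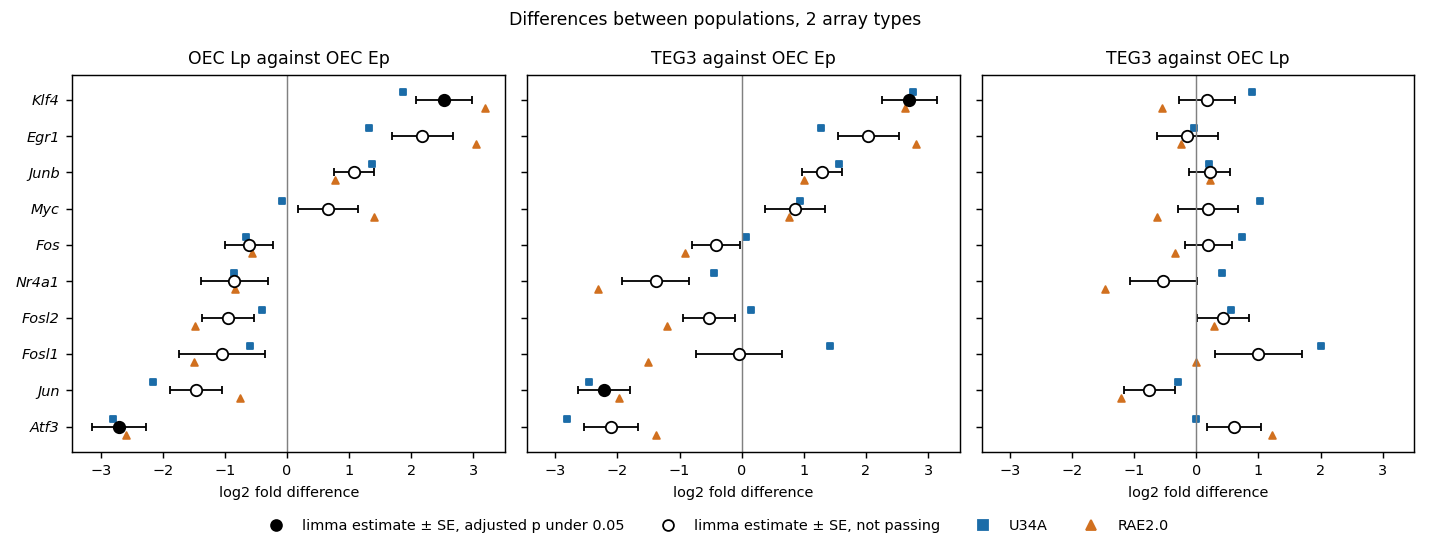
log2 fold differences (x axis) of the 10 genes (y axis) in the 3 comparisons, with the limma estimate ± SE as circles, filled where the adjusted p was under 0.05, and the value on each array type as squares (U34A) and triangles (RAE2.0). Klf4 at 2.53 and Atf3 at -2.70 passed in OEC Lp, Klf4 at 2.70 and Jun at -2.21 in TEG3, and none of the 10 passed between TEG3 and OEC Lp.

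These 4 calls are near the limit of the design. With any 1 of the 6 arrays left out, 0 of the 10 genes passed in either comparison. That was also so without a floor, without the filter on dim probe sets, without array type as the replicate block, and with only the 4 arrays of the populations compared. Few genes of the whole table passed in these settings either. Without a floor 66 passed in OEC Lp and 11 in TEG3, and without the filter 1 in each, against 192 and 141 in the main fit. The 0 of 10 is thus near the share of all genes in these settings.

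Among the AP-1 genes, Jun codes for the main AP-1 partner of Fos proteins. Its signal, averaged over 4 probe sets on U34A, was 3650 for OEC Ep, against 814 for OEC Lp and 666 for TEG3. Over 3 probe sets on RAE2.0 it was 4328, 2561 and 1101. OEC Ep was the highest on each type and TEG3 the lowest, and each of the 7 probe sets was lower in OEC Lp and in TEG3 than in OEC Ep. Jun fell 4.64-fold in TEG3 (log2 fold -2.21 ± 0.418 SE, limma adjusted p = 0.0496), with -2.45 on U34A and -1.97 on RAE2.0. In OEC Lp the log2 fold was -1.46 ± 0.418 (adjusted p = 0.128), and the types differed in its size, -2.16 on U34A and -0.76 on RAE2.0. The U34A probe sets differed 3.63-fold to 5.51-fold between OEC Ep and OEC Lp, the RAE2.0 probe sets 1.52-fold to 1.88-fold. The OEC Ep array of U34A, which carries the larger difference, is also the one with the higher GAPDH ratio. The part of RNA quality in that difference was not tested.

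Junb, the Jun relative that can restrain Jun, went the other way in the same arrays. Its signal over 2 probe sets on U34A was 444 for OEC Ep, against 1150 for OEC Lp and 1322 for TEG3, and that of 1 probe set on RAE2.0 was 2002, 3427 and 4002. All 3 probe sets were lowest in OEC Ep. The log2 fold was 1.07 ± 0.323 in OEC Lp (limma adjusted p = 0.143) and 1.29 ± 0.323 in TEG3 (adjusted p = 0.0967), so neither passed. Jun and Junb thus had opposite signs on both types in both comparisons, of which the Jun value in TEG3 alone passed.

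Fos, which codes for the short-lived AP-1 subunit c-Fos, was read by 5 probe sets that did not move alike. The brightest, on RAE2.0, read 5602 for OEC Ep, against 2566 for OEC Lp and 1470 for TEG3. The other RAE2.0 probe set was at or near the floor, with 124, 141 and 181. On U34A the probe sets gave 623, 268 and 396, then 881, 584 and 1232, and then 146, 93 and 192. In OEC Lp 4 of the 5 were lower than in OEC Ep and the fifth was at the floor in both, while TEG3 was higher than OEC Ep on 3 and lower on 2. The log2 fold over both types was -0.61 ± 0.385 in OEC Lp (limma adjusted p = 0.465) and -0.42 ± 0.385 in TEG3 (adjusted p = 0.581), which leaves a 95% interval of -1.38 to 0.54 for TEG3.

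Fosl1 and Fosl2 code for the Fos relatives Fra-1 and Fra-2, which lack the strong activating region of c-Fos. Fosl1 read 195 for OEC Ep on U34A, against 24 for OEC Lp, under the floor, and 520 for TEG3. Its RAE2.0 signals were 971, 344 and 341 in that order. OEC Lp was below OEC Ep on both types, but TEG3 was the highest on U34A and level with OEC Lp on RAE2.0. Its log2 folds were -1.05 ± 0.694 in OEC Lp (adjusted p = 0.484) and -0.05 ± 0.694 in TEG3 (adjusted p = 0.986, with a sign that turned under quantile normalization), the widest error of the 10 genes.

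Fosl2 had 4 probe sets. That with the largest range, on RAE2.0, read 804 in OEC Ep and was below the floor in OEC Lp (64) and TEG3 (163), a difference of at least 4.79-fold on this probe set. The other RAE2.0 probe set gave 468, 284 and 425, and the brighter one on U34A 838, 464 and 1029 in the same order. The last gave 74, 132 and 82, about the floor. OEC Lp was the lowest on both probe sets that exceeded the floor on all 3 arrays, and TEG3 was above OEC Ep on 1 and below it on the other. The log2 fold was -0.95 ± 0.418 in OEC Lp (limma adjusted p = 0.297) and -0.53 ± 0.418 in TEG3 (adjusted p = 0.514).

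**Figure D3:**
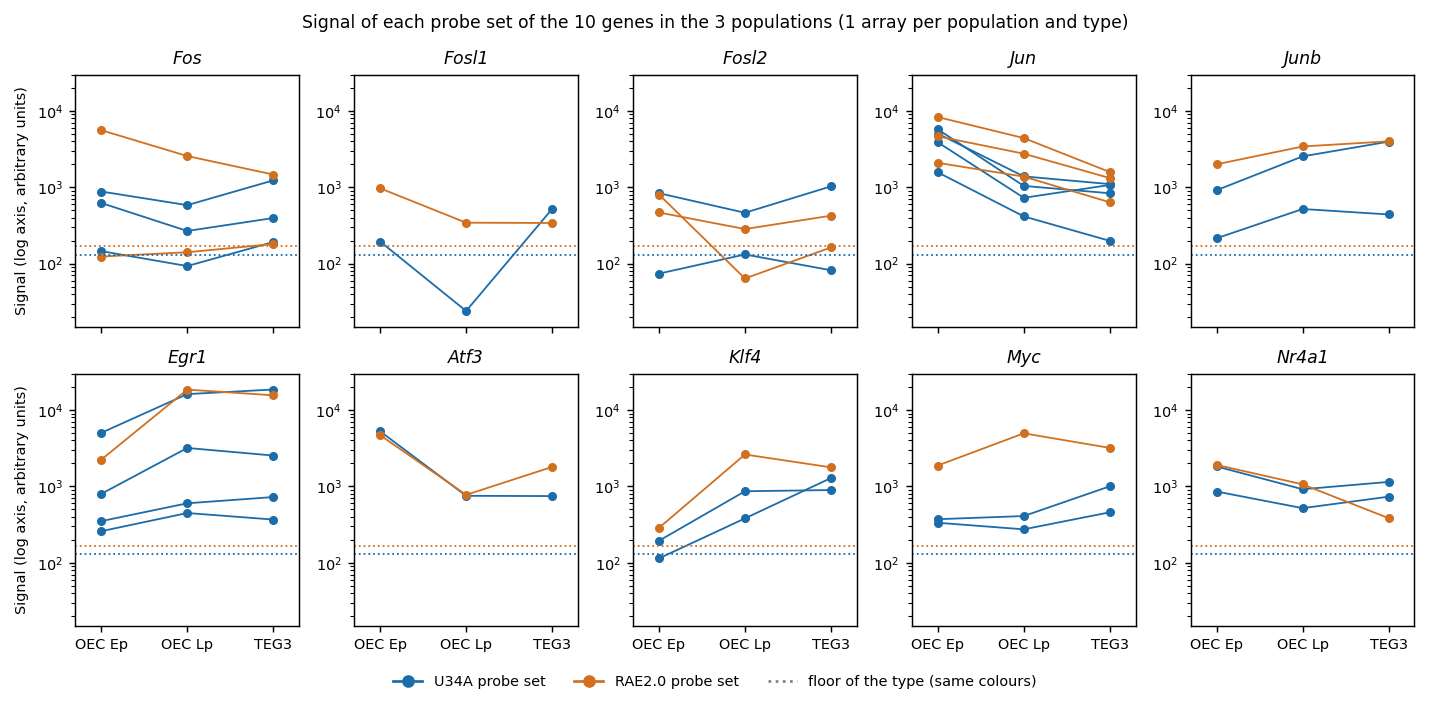
Signal (log axis, arbitrary units) of each of the 37 probe sets in OEC Ep, OEC Lp and TEG3, 1 point an array, with U34A in blue, RAE2.0 in orange and the floor of each type as a dotted line. Lines join the points of 1 probe set. Jun lies highest in OEC Ep on 7 of 7 probe sets and Egr1 lowest there on 5 of 5, whereas the 5 Fos probe sets do not share a pattern.

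Atf3, a stress-induced factor that binds cyclic AMP response elements and AP-1 sites, had the largest lower value of the 10 genes in OEC Lp. On U34A it read 5271 for OEC Ep, against 753 for OEC Lp and 747 for TEG3. The RAE2.0 signals were 4692, 775 and 1797. OEC Ep was the highest on both types, OEC Lp and TEG3 were level on U34A, and TEG3 was 2.32-fold above OEC Lp on RAE2.0. Atf3 fell 6.51-fold in OEC Lp (log2 fold -2.70 ± 0.437, limma adjusted p = 0.0251), with -2.81 on U34A and -2.60 on RAE2.0. In TEG3 the log2 fold was -2.10 ± 0.437 and missed the threshold (adjusted p = 0.0608), but passed when only probe sets over the floor on all arrays were used (adjusted p = 0.0441, with a range of 0.0441 to 0.621 over the 9 alternatives). Microglia markers and ensheathing markers were higher in OEC Ep on the same arrays, as given above.

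Klf4, a zinc finger factor known from epithelia and from reprogramming, had the largest higher value. Its signal over 2 probe sets on U34A, both drawn from 1 transcript accession, was 158 for OEC Ep, against 574 for OEC Lp and 1074 for TEG3. The RAE2.0 signals were 286, 2618 and 1777. OEC Ep was the lowest on all 3 probe sets, and there 1 U34A probe set, at 114, lay under the floor, so that the fold of this probe set is a lower bound. Klf4 rose 5.76-fold in OEC Lp (log2 fold 2.53 ± 0.448, limma adjusted p = 0.0333) and 6.49-fold in TEG3 (log2 fold 2.70 ± 0.448, adjusted p = 0.0371). In OEC Lp the difference was 3.63-fold on U34A and 9.15-fold on RAE2.0, and the log2 fold was 3.23 without the U34A array of OEC Lp and 1.83 without its RAE2.0 array. TEG3 was above OEC Lp on U34A and below it on RAE2.0.

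Egr1, a growth factor-induced zinc finger factor, was higher in OEC Lp and TEG3 on all 5 of its probe sets. The brightest U34A probe set read 5033 for OEC Ep, against 16174 for OEC Lp and 18578 for TEG3, and the RAE2.0 probe set 2241, 18532 and 15598. The other U34A probe sets read 799, 3188 and 2536, then 351, 601 and 725, and then 259, 448 and 368. OEC Ep was the lowest on each, with 1.71-fold to 3.99-fold more in OEC Lp on U34A and 8.27-fold more on RAE2.0. Averaged over probe sets, the log2 fold was 2.18 ± 0.493 in OEC Lp (limma adjusted p = 0.0695) and 2.04 ± 0.493 in TEG3 (adjusted p = 0.0891), and neither passed. With the brightest probe set of each gene in place of the mean, the log2 folds were 2.37 and 2.34 and both passed (limma adjusted p = 0.0306 and 0.0376), the lowest of 9 alternatives, of which the highest was 1 in each comparison.

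Nr4a1, an orphan nuclear receptor and a common cyclic AMP-induced gene, was highest in OEC Ep. The signal over 2 U34A probe sets was 1250 for OEC Ep, against 690 for OEC Lp and 916 for TEG3, and on RAE2.0 it was 1911, 1064 and 384. All 3 probe sets were lower in OEC Lp and in TEG3 than in OEC Ep, and the order of OEC Lp and TEG3 differed between types. The log2 fold was -0.85 ± 0.540 in OEC Lp (limma adjusted p = 0.468), with -0.86 on U34A and -0.84 on RAE2.0. It was -1.38 ± 0.540 in TEG3 (adjusted p = 0.221), with -0.45 and -2.32. Its window, printed above, holds the most cyclic AMP response element cores of the 6, at a start 12985 bases inside the annotated gene. All 3 populations were in the same forskolin dose, and the part of cyclic AMP in these levels was not tested.

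Myc, a driver of growth and ribosome synthesis, read 352 for OEC Ep on U34A, against 335 for OEC Lp and 678 for TEG3. The RAE2.0 signals were 1878, 4959 and 3194. TEG3 was above OEC Ep on both types, but OEC Lp was level with OEC Ep on U34A and the highest of the 3 on RAE2.0. The log2 folds were 0.66 ± 0.480 in OEC Lp (limma adjusted p = 0.517) and 0.85 ± 0.480 in TEG3 (adjusted p = 0.366).

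TEG3 and OEC Lp were compared directly to ask whether immortalised and long-passaged cells differ in these genes. None of the 10 was called, where 1.31% of all genes were (0.192% higher and 1.12% lower, 41 of 3129 in all), and 0 of the 10 had an unadjusted p under 0.05, as 15.4% of all genes did. The largest log2 folds were 0.999 ± 0.694 for Fosl1 (limma adjusted p = 0.573), whose OEC Lp value on U34A was at the floor, -0.75 ± 0.418 for Jun (adjusted p = 0.478) and 0.60 ± 0.437 for Atf3 (adjusted p = 0.597). The types gave the same sign for 4 of the 10 genes (Fosl2, Jun, Junb and Egr1) and for 57% of all genes. For Junb and Egr1 the 95% intervals were -0.59 to 1.02 and -1.37 to 1.08, so a 2-fold difference lay within both.

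**Figure D4:**
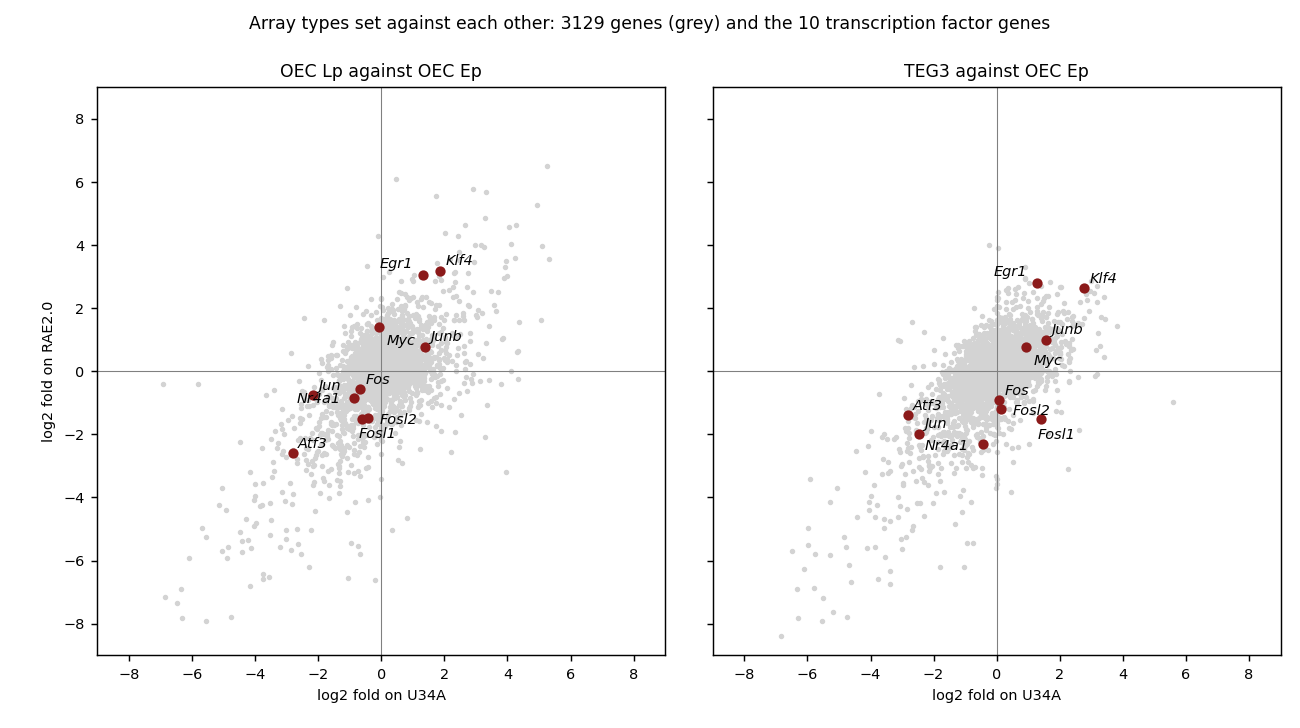
log2 fold on RAE2.0 (y axis) against log2 fold on U34A (x axis) for 3129 genes (grey) and the 10 transcription factor genes (red), in OEC Lp and in TEG3 against OEC Ep. Atf3 and Klf4 lie away from 0 on both types, while Fosl1 in TEG3 lies at 1.41 on U34A and -1.51 on RAE2.0.

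The 12 other AP-1 and related leucine zipper genes on both types code for partners and relatives of Fos, Jun and ATF3. By limma, 0 of them were called in any of the 3 comparisons. Of all genes, 6.14% were called in OEC Lp and 4.51% in TEG3 against OEC Ep, and 1.31% between TEG3 and OEC Lp. The median log2 fold of the 12 was 0.27 in OEC Lp and 0.10 in TEG3 against OEC Ep, with 0.11 and 0.04 over all genes. Crem, whose short products are cyclic AMP-induced repressors, read 440 for OEC Ep, 287 for OEC Lp and 204 for TEG3 on U34A, and 798, 379 and 268 on RAE2.0. Its order was the same on both types, and its log2 folds were -0.85 (limma adjusted p = 0.219) in OEC Lp and -1.34 (adjusted p = 0.0821) in TEG3. Cebpb, a factor of inflammation, had a log2 fold of 1.91 in TEG3 (adjusted p = 0.0665), and Maf -2.39 (adjusted p = 0.0739).

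Of 26 other immediate early and primary response genes on both types, 1 was called lower and 0 higher in each comparison with OEC Ep. Of all genes, 4.03% were called lower and 2.11% higher in OEC Lp, and 3.84% and 0.671% in TEG3, so 1 of 26 is near the share called lower. The gene called was Btg1, an antiproliferative gene, which fell 5.06-fold in OEC Lp (limma adjusted p = 0.0155) and 3.81-fold in TEG3 (adjusted p = 0.0342). The median log2 fold of the list was 0.13 in OEC Lp and -0.43 in TEG3, with 0.11 and 0.04 over all genes. The counts by type rest on 1 array a population and no test. On U34A, 4 of 26 were at least 2-fold higher and 4 lower in OEC Lp, against 11% and 10.2% of all 3722 genes. In TEG3, 3 were higher and 6 lower on U34A, against 10.5% and 13%. On RAE2.0, 3 of 41 were at least 2-fold higher and 9 lower in OEC Lp, where 10.4% of all 11542 genes were higher and 10.4% lower. In TEG3, 3 were higher and 10 lower on RAE2.0, against 12.1% and 10.6% of all genes. Plk2, a polo-like kinase gene, read 26550 for OEC Ep there, against 1273 for OEC Lp and 8923 for TEG3. Ccn2, the matricellular connective tissue growth factor, read 42587, 21375 and 7364. Rgs2, which damps G protein signalling, was at the floor in OEC Lp and read 579 in OEC Ep and 1500 in TEG3. The 3 genes have 3 different orders of the populations. Gadd45g had the order of Rgs2, with 477 for OEC Ep, 367 for OEC Lp and 1942 for TEG3.

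Upstream genes, which code for MAP kinases, cyclic AMP kinase subunits, cyclases and phosphodiesterases, had 0 of 20 called in any comparison. Of all genes, 6.14% were called in OEC Lp and 4.51% in TEG3 against OEC Ep, and 1.31% between TEG3 and OEC Lp. The medians of the list were -0.04 and 0.09 in OEC Lp and TEG3 against OEC Ep, with 0.11 and 0.04 over all genes. Pde4b, a phosphodiesterase that breaks down cyclic AMP, read 443 for OEC Ep, 140 for OEC Lp and 1382 for TEG3 on U34A, and 2731, the floor and 2750 on RAE2.0. OEC Lp was the lowest on both types. The log2 fold in OEC Lp was -2.84 ± 0.587 and just missed the threshold (limma adjusted p = 0.0529), as did that of TEG3 against OEC Lp, 3.67 (adjusted p = 0.0548). Rps6ka2, which codes for a kinase that acts downstream of MAP kinases and was measured on RAE2.0 only, read 1456 for OEC Ep and 180 for OEC Lp, and was at the floor in TEG3.

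AP-1 target genes include proteases and matrix genes. Of 23 on both types, 5 fell and 1 rose in OEC Lp, and 4 fell and 0 rose in TEG3, where 4.03% of all genes were called lower and 2.11% higher in OEC Lp, and 3.84% and 0.671% in TEG3. The median log2 fold of the list was -0.47 and -0.93, against 0.11 and 0.04 over all genes. In OEC Lp it was -0.60 for the 24 list genes on U34A and -0.59 for the 25 on RAE2.0. In TEG3 the types differed, with -0.22 on U34A and -1.45 on RAE2.0, where all genes had 0 and 0.11. With any 1 array left out, 0 genes of the whole table were called in TEG3 and 0 to 38 in OEC Lp. The plasminogen activator gene Plau fell by a fitted 5.07-fold in OEC Lp (limma adjusted p = 0.0358) and 6.74-fold in TEG3 (adjusted p = 0.0309), and was at the floor in both on RAE2.0 and in TEG3 on U34A. Its relative Plat fell 3.33-fold (adjusted p = 0.0326) and 5.72-fold (adjusted p = 0.0159). Mmp3, the metalloproteinase stromelysin, fell by a fitted 12.4-fold in OEC Lp (adjusted p = 0.0392), which was at the floor on both types, and had a log2 fold of -3.09 in TEG3 (adjusted p = 0.0732). Hbegf and S100a4 fell in OEC Lp and Anxa1, the annexin, rose there 3.53-fold (adjusted p = 0.0294). Spp1, which codes for osteopontin, fell in TEG3 by a fitted 54.0-fold (adjusted p = 0.0162), with 63.7-fold on U34A and at least 45.8-fold on RAE2.0, where TEG3 was at the floor, and Vim by 4.07-fold (adjusted p = 0.0285). Osteopontin is also made by macrophages, whose markers were lower in the same arrays, and their part in its fall was not tested.

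The Myc network and its targets had 0 of 21 genes called in OEC Lp, where 6.14% of all genes were. In TEG3 1 was called higher and 1 lower, against 0.671% and 3.84% of all genes. Nop58, which codes for a nucleolar protein of ribosome synthesis, rose 3.72-fold there (log2 fold 1.90 ± 0.296, limma adjusted p = 0.0309). Ccnd2, a G1 cyclin, fell by a fitted 13.4-fold, with a log2 fold of -3.75 ± 0.602 (adjusted p = 0.0339), TEG3 being at the floor on U34A. The median of the list was 0.20 in OEC Lp and 0.69 in TEG3, with 0.11 and 0.04 over all genes.

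ATF4 and unfolded protein stress genes belong to a pathway of which Atf3 is a known target. On both types limma called 0 of 21 in any comparison, where 6.14%, 4.51% and 1.31% of all genes were called, in the order used above. The medians were -0.24 in OEC Lp and 0.41 in TEG3 against OEC Ep, with 0.11 and 0.04 over all genes. On RAE2.0, 15 of 28 were at least 2-fold higher and 2 lower in TEG3, where 12.1% of all genes were higher and 10.6% lower. In OEC Lp 5 were higher and 2 lower, against 10.4% and 10.4% of all genes. Between TEG3 and OEC Lp 9 were higher and 0 lower, against 9.63% and 8.66% of all genes. Atf4 itself read 16417 for OEC Ep there, against 26447 for OEC Lp and 36465 for TEG3, and Chac1, a glutathione-degrading enzyme induced by ATF4, 1509, 3946 and 9540. Herpud1, of protein degradation at the endoplasmic reticulum, read 1827, 6733 and 8997. OEC Ep was lowest and TEG3 highest for each, whereas Atf3 was highest in OEC Ep.

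On U34A, 1 of 21 was at least 2-fold higher and 3 lower in OEC Lp, against 11% and 10.2% of the 3722 genes there. In TEG3 3 were higher and 1 lower, against 10.5% and 13%, and between TEG3 and OEC Lp 6 were higher and 0 lower, against 8.01% and 11.6%. Ddit3, which codes for the stress factor CHOP, was read as 1427, 4525 and 8612 on RAE2.0 but as 179, 288 and 265 on U34A, and its log2 fold in TEG3 was 1.58 ± 0.516 (limma adjusted p = 0.162). For the 21 genes on U34A the median was -0.58 in OEC Lp and 0.44 in TEG3, against 0.42 and 1.06 for the 28 on RAE2.0. The heat shock gene Hspa1a, which near-identical copies can share, had log2 folds of -1.57 in OEC Lp (limma adjusted p = 0.11) and -1.06 in TEG3 (adjusted p = 0.225). Other heat shock family genes of the list differed in sign in TEG3. Dnajb1 had 1.29 (adjusted p = 0.0891) and Hspb1 1.77 (adjusted p = 0.232), but Dnajb9 had -1.30 (adjusted p = 0.104). Hspa5 and Hspa4 had -0.15 and 0.24. In OEC Lp Dnajb1 had 0.49 (adjusted p = 0.468) and Dnajb9 -0.73 (adjusted p = 0.319). Hspb1 had -1.57 there (adjusted p = 0.314) and was at the floor on RAE2.0.

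**Figure D5:**
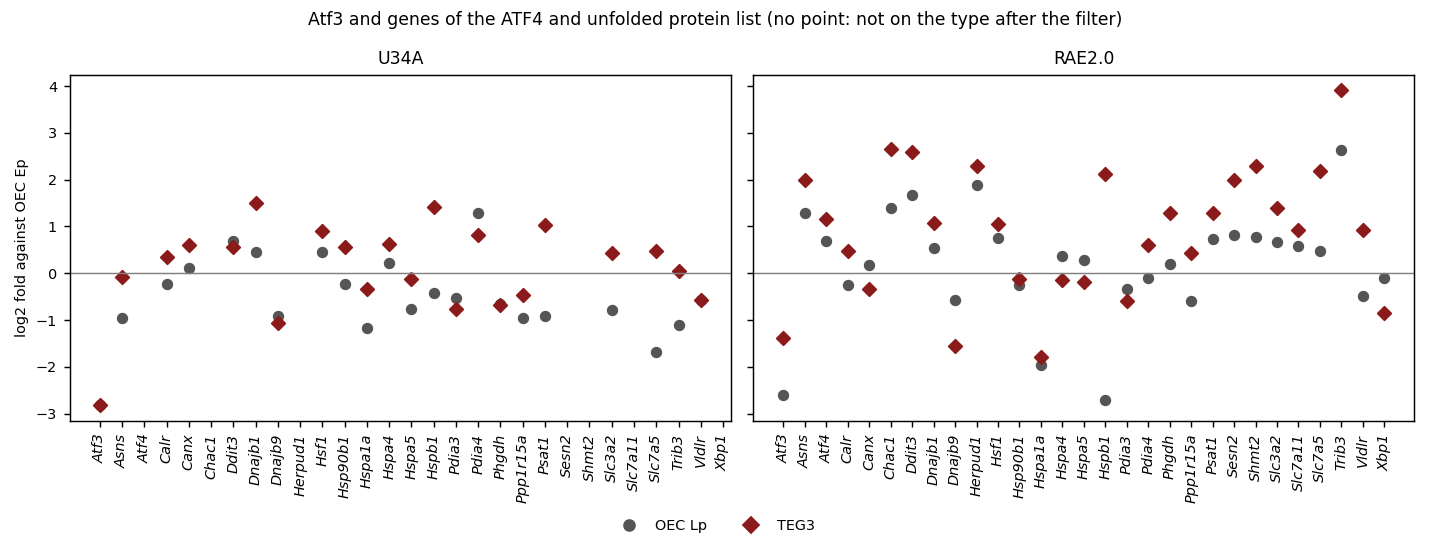
log2 fold against OEC Ep (y axis) of Atf3 and the genes of the ATF4 and unfolded protein list (x axis) on U34A and RAE2.0, for OEC Lp (grey circles) and TEG3 (red diamonds), 1 array a population and type. Atf3 lies between -2.82 and -1.38, while 15 of the 28 list genes on RAE2.0 lie at or above a 2-fold higher signal in TEG3.

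The genes most like the called members were taken by Pearson r over 6 arrays, with the mean of each array type removed, among 3119 genes. With 3 populations such values are high for many genes: 48 had r over 0.95 with Atf3, 32 with Klf4 and 31 with Jun. Tns3, a tensin, came first for Atf3 (r = 0.9997). It read 2294 for OEC Ep, 480 for OEC Lp and 495 for TEG3 on U34A, and 3032, 703 and 1433 on RAE2.0. Its order of populations was that of Atf3 on RAE2.0. Ywhab and Prune2 followed, each with r = 0.997. The measure compares the shape over arrays and not the size: Ywhab had a log2 fold of -0.40 in OEC Lp (limma adjusted p = 0.53), against -2.18 for Tns3 (adjusted p = 0.0333). Klf4 was most like Cbfa2t2 (r = 0.996), with a log2 fold of 0.55 in OEC Lp (limma adjusted p = 0.398), Asl (r = 0.994) and Lox (r = 0.990), the last of which codes for a collagen cross-linking enzyme and read 1063, 5321 and 7689 on U34A and 3616, 32045 and 17343 on RAE2.0. Jun was most like Lpl, the lipoprotein lipase (r = 0.998), Gstk1 (r = 0.993) and Map1lc3a (r = 0.992), of which the last had a log2 fold of -0.62 in OEC Lp (limma adjusted p = 0.371). These values describe 6 arrays and carry no test.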

How the data were processed

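Total RNA of 3 populations was hybridised to 3 U34A arrays (8799 probe sets) and 3 RAE2.0 arrays (31099 probe sets). The authors computed signal intensity with MAS5, per the submitters' processing notes, and the deposited values are linear. Per the design text, Microarray Suite 5.0 was used with a filter whose setting is not given. Detection calls were not used here, and the number of arrays limits the precision. Symbols came from the platform annotation: 7006 and 20826 probe sets had 1 symbol, 308 and 436 several, 1426 and 9780 none, and symbols were updated by gene ID. Control probe sets (59 and 57) were left out.

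Within each type, arrays were scaled to a common 2% trimmed mean, signals under the 40th percentile (129 and 168) were set to that floor, and probe sets over it on at least 1 array were kept. Log2 signals of a gene's kept probe sets were averaged (3722 and 11542 genes, 3129 on both). Where a population was at the floor on 1 type, the fold of that type or probe set is a lower bound ("at least"), and a fitted fold over both types is not. Types were scaled separately, so only differences within a type entered the fit. limma 3.58.1 (R 4.3.3) fitted population plus array type (the replicate number, so this is the replicate block) on all 6 arrays (2 residual and 3.64 prior degrees of freedom), with two-sided p-values and Benjamini-Hochberg adjustment over all 3129 genes. The SE is that of limma. On simulated data, the fit of OEC Lp against OEC Ep was tested (3129 genes, 200 changed, 10 runs). Of the changes, 2.56% of 2-fold, 39.6% of 4-fold, 68.1% of 8-fold and 81.2% of 16-fold ones were recovered, and 3.4% of calls were false. These rates belong to the simulated setting, and the share of false calls in the deposited data was not measured.

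The members, gene lists, markers and naming rule were chosen with earlier results of these data known. Named genes were the 10 members, up to 4 called genes of each list and comparison with the lowest p (the 2 lowest where none was called), up to 2 a direction of genes on RAE2.0 only past 2-fold, and the 3 genes most like each called member. The text gives examples of these. Mmp3 and Hbegf fall outside the rule and were chosen after their values were seen. Alternatives changed the floor, the filter, the scaling, the block, the arrays used and the probe set rule. Motifs were searched with Python 3.11.15.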

Additional observations from a re-analysis of the deposited data

How the results depend on the processing

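Directions of the 4 calls (Atf3 and Klf4 in OEC Lp, Jun and Klf4 in TEG3) were the same under all 9 alternatives and with each array left out, but their adjusted p-values were not: they ran from 0.0194 to 0.34 for Atf3 in OEC Lp, from 0.013 to 0.656 for Klf4 in OEC Lp, from 0.0203 to 0.72 for Klf4 in TEG3 and from 0.0327 to 0.763 for Jun in TEG3. The cause was not tested, other than fewer arrays or more genes tested by construction.

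Genes called numbered 192 in OEC Lp and 141 in TEG3 against OEC Ep and 41 between TEG3 and OEC Lp. Without a floor they numbered 66, 11 and 0, and 0 of the 10 genes passed. With the floor at the 25th percentile, the last comparison had 4 and 1 of the 10 genes passed in TEG3 (Klf4), as under quantile normalization. When dim probe sets were kept 1, 1 and 0 genes passed and 0 of the 10. With probe sets over the floor on all arrays, 77 and 86 passed. Without the replicate block of array type 0 passed by limma in all 3 comparisons (193, 172 and 109 at an unadjusted p under 0.05), and so 0 of the 10 genes. With only the 4 arrays of the populations compared 38, 0 and 0 passed and 0 of the 10. Leaving out 1 array gave 0 to 38 genes in OEC Lp against OEC Ep, 0 to 0 in the other comparisons and 0 to 0 of the 10 genes, where the spread of a lone array was taken from the other populations.

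Some log2 folds that had not passed changed sign. With probe sets over the floor on all arrays, or the brightest probe set, Fosl2 in TEG3 against OEC Ep was 0.079 and Klf4 between TEG3 and OEC Lp -0.25. Fosl1 in TEG3 against OEC Ep was 0.016 under quantile normalization. With arrays left out, the log2 folds that turned were spread as follows. In OEC Lp against OEC Ep they ran from -0.12 to 1.45 for Myc. In TEG3 against OEC Ep they ran from -0.94 to 0.10 for Fos, from -1.28 to 1.19 for Fosl1 and from -1.13 to 0.081 for Fosl2. In TEG3 against OEC Lp they ran from -0.064 to 1.27 for Atf3, from -0.63 to 0.34 for Egr1, from -0.32 to 0.71 for Fos, from -0.24 to 2.24 for Fosl1, from -0.53 to 0.87 for Klf4, from -0.59 to 0.97 for Myc and from -1.47 to 0.40 for Nr4a1.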
